A study of Mus musculus with 26 samples.

Results

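The genes described here encode the proteins of the mitochondrial ribosome. They were taken by symbol, as every transcript whose gene symbol begins with Mrpl or Mrps followed by a digit. Each of the 3 deposited tables held the same 63 of them, 41 named Mrpl and 22 named Mrps, with 1 transcript per gene. They were 63 of 8576 transcripts in the table of GS LRRK2 TG mice, 63 of 8576 in the table of GS/DA LRRK2 TG mice and 63 of 9561 in the table of LRRK2 KO mice. By known structure 42 belong to the large subunit, 20 to the small subunit and 1, Mrps36, carries the name but is not held to be a subunit. Mrps30 carries a small-subunit name and sits in the large subunit.

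The study profiled mouse brain by ribosome footprinting, which sequences the mRNA fragments that ribosomes protect, and by RNA-Seq of the same tissue. GS LRRK2 TG mice expressed human LRRK2 with the Parkinson's disease substitution G2019S, GS/DA LRRK2 TG mice expressed it with a further D1994A substitution that removes kinase activity, and both were set against non-TG control mice. LRRK2 KO mice, which lack a working Lrrk2 gene, were set against WT mice. All groups were C57BL/6 striatum labelled as 3 months old, where the study's methods give 3 to 4 months, and by those methods tissue was pooled from mice of both sexes. By the same methods the transgenes were driven through CaMKII-tTA, a driver of forebrain excitatory and striatal projection neurons, and were held silent with doxycycline food until weaning, so that expression began in the young animal. Each transgene was studied in a single high-copy line. The labels listed 2 footprinting and 2 RNA-Seq libraries for each transgenic genotype, and for the non-TG control 3 of each. For LRRK2 KO and WT they listed 3 striatal footprinting and 2 RNA-Seq libraries each. The tables of the 2 transgenic genotypes share non-TG control mice, so that their values are not independent of each other.

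Mitochondria carry a small genome of their own and translate its few mRNAs, all of them for membrane subunits of the respiratory chain and ATP synthase, on a separate ribosome. Its RNAs come from the mitochondrial genome, but every protein of it is encoded in the nucleus, translated in the cytosol and imported. Some of these proteins descend from those of the bacterial ribosome and others were added in the mitochondrial lineage. Neurons depend on respiration for most of their ATP, and defects of mitochondrial ribosomal proteins cause inherited disorders of brain, heart and muscle.

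The deposited values were means of normalized reads over the libraries of a group, without an error. In 10 of the 12 columns used, the reads of each of 2 libraries could be recovered from the digits of the means, and the values of single libraries given here come from that step. In the GS LRRK2 TG table the control means could not be resolved and are given as the deposited mean. Recovered footprinting libraries held between 2643671 and 15954039 reads in coding sequence (CDS), and recovered RNA-Seq libraries between 2884222 and 12663308. The footprinting libraries of the LRRK2 KO table were the shallowest, and 9 of 63 mitochondrial ribosomal proteins had all 4 means at 2 times the read minimum of the authors or above there, against 60 and 63 in the tables of GS LRRK2 TG and of GS/DA LRRK2 TG. Translation efficiency (TE) is the log2 ratio of footprints to RNA-Seq reads.

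The tissue carried the markers of striatum. Of 12 listed symbols for striatal projection neurons 10 were in each table, and Ppp1r1b (DARPP-32), the most abundant of them, had 55232 footprints per kb of CDS in the non-TG control of the GS LRRK2 TG table, above 99.8% of transcripts. None of the dopamine neuron markers Th, Slc6a3 and Slc18a2 was in any table, so cell bodies of dopamine neurons were not measurable. Lrrk2 itself, on mm9 chr15:91503606-91646551 (plus strand), followed the genotype in footprinting. Its normalized footprints were 3320 and 7052 in the GS LRRK2 TG libraries against a control mean of 2524. They were 7267 and 4766 in GS/DA LRRK2 TG against 1445 and 1224 in its controls, and 102 and 150 in LRRK2 KO against 400 and 690 in WT. Every recovered transgenic library lay above its control and both LRRK2 KO libraries lay below both WT libraries. The log2 changes were 1.04, 2.17 and -2.12. In RNA-Seq only LRRK2 KO differed without overlap, with 423 and 270 against 1278 and 733 (-1.54). The transgenes did not show there, with 3550 and 214 against a mean of 2105 in GS LRRK2 TG (-0.16) and 404 and 5038 against 5233 and 560 in GS/DA LRRK2 TG (-0.09).

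In the controls the mitochondrial ribosomal proteins had short coding sequences and a footprint density above that of the median transcript, and well below that of other genes of the ribosome and respiratory chain. Their median footprint density was 943 normalized reads per kb of CDS in the non-TG control of the GS LRRK2 TG table, against 385 over all transcripts. It was 1235 against 484 for the controls of GS/DA LRRK2 TG, while WT had 293 against 113. RNA-Seq reads per kb were higher as well, at 1067 against 463, 1191 against 496 and 450 against 192. Cytosolic ribosomal proteins had 4258 footprints per kb in the control of the GS LRRK2 TG table and Nduf genes 4533. Not divided by length, the members' median was 544 normalized footprints against 564 over all transcripts there. Their median TE in those controls was -0.25, -0.08 and -0.54, beside -0.17, 0.04 and -0.64 over all transcripts. The cytosolic ribosomal proteins, 74 in each table, stood far below in TE, with medians of -1.47, -1.18 and -1.20. Those mRNAs carry a 5′ terminal oligopyrimidine tract that holds part of them off ribosomes, as textbook background. The 39 Nduf genes, which encode subunits and assembly factors of respiratory complex I, had medians of -0.13, 0.08 and -0.43. In TE the mitochondrial ribosomal proteins thus lay nearer the Nduf genes than the proteins of the cytosolic ribosome.

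Among the members the density differed more than 10-fold. In the non-TG control of the GS LRRK2 TG table Mrps33, a small-subunit protein without a bacterial relative, had 4264 footprints per kb and Mrps21, related to bacterial S21, had 3146. Mrpl20, related to L20 and needed for early large-subunit assembly in bacteria, had 2352. At the low end stood Mrps27 with 340, Mrpl1 with 365 and Mrps35 with 423. The same genes held these places in WT, where Mrps33 had 1215, Mrps21 had 978 and Mrpl20 had 737, against 113 for Mrpl1, 130 for Mrps27 and 148 for Mrps35. The order of the most and least dense members was thus alike in animals of both colonies, although most proteins of 1 particle are needed in like number. By subunit, the median density was 1008 for the large and 767 for the small subunit in the GS LRRK2 TG table, 1317 and 984 for the controls of GS/DA LRRK2 TG, with 313 and 247 in WT.

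The members also differed in TE. Mrpl50, a large-subunit protein of the mitochondrial lineage, had the highest value in the non-TG control of the GS LRRK2 TG table (0.97), followed by Mrpl34 (0.76), related to L34, and Mrps17 (0.75), related to S17. In the non-TG control of the GS/DA LRRK2 TG table the highest were Mrpl34 (1.09), Mrpl50 (1.03) and Mrpl36 (1.02). Mrpl18, whose bacterial relative binds 5S rRNA, was the lowest in both at -1.30 and -1.18 and near the end in WT at -1.37. Mrpl54 was also low in all 3 controls, at -1.29, -1.0 and -1.16. In WT the highest values belonged to Mrpl1 (0.35) and Mrps22 (0.26), and the lowest to Mrpl37 (-1.41). Mrpl18 and Mrpl54 therefore stood low in every control, while the top of the order differed between the colonies.

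**Figure D1:**
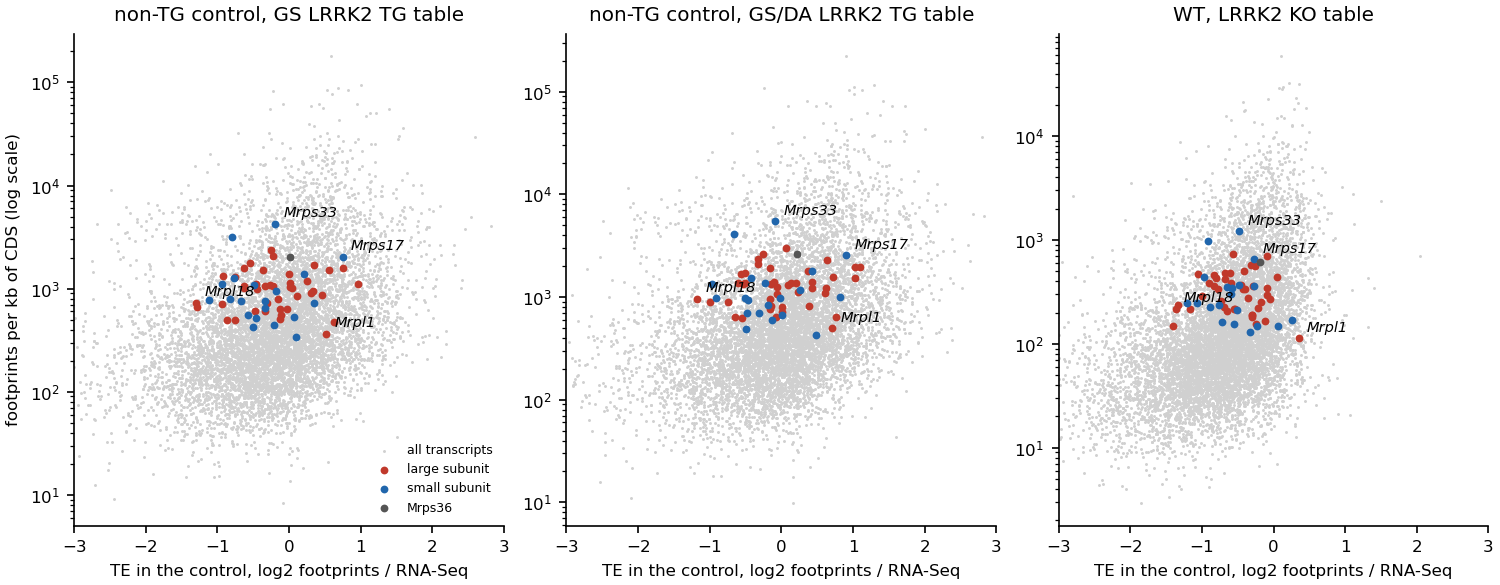
Footprints per kb of CDS (log scale) against TE (log2) in the control group of each table; grey points are all transcripts with an annotated CDS, red points large-subunit members, blue points small-subunit members and the dark point Mrps36. The members lie above the middle of the cloud in footprints, with Mrps33 at the top and Mrpl18 at low TE in every panel; transcripts beyond a TE of 3 in size are not drawn.

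The members had short, weakly folded leaders, as did other genes for small proteins of the ribosome and respiratory chain. The predicted folding energy of their 5′ untranslated regions, a column of the tables, had a median of -22.2 kcal/mol against -91.2 over all transcripts of the transgenic tables, and cytosolic ribosomal proteins had -19.2 and Nduf genes -18.5. Their leaders were shorter, with a median of 91.0 nt against 170, and so were their coding sequences, with 579 nt against 1473. Cytosolic ribosomal proteins had leaders of 94.0 nt and coding sequences of 483 nt, and Nduf genes 94.0 and 471 nt, so none of this was particular to the members. The GC content of the coding sequence did not set them apart (median 52.8% for the members and 52.8% for all). Within the members, leaders ranged from Mrpl3, related to L3 at the peptidyl transferase centre, at -155.90 kcal/mol to Mrpl47 at 0.00. Mrpl55 had -91.91, a leader as structured as that of the median transcript.

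The genes were spread over 17 chromosomes, all autosomes, with 7 on chromosome 11 and 6 each on chromosomes 7 and 17. Of 63 members, 7 had coding bases that overlap an exon of another gene in the mm9 annotation. Mrps34 shared 333 bases (50.9% of its CDS) with Mapk8ip3 on the opposite strand, and Mrpl24 shared 265 bases (40.9%) with Rrnad1. Mrpl18 shared 124 bases (23%) with Tcp1. Mrpl43 shared 97 bases with Peo1, the mitochondrial DNA helicase, and Mrps11 shared 65 with the head-to-head gene Mrpl46. Mrps6 shared 45 bases (12%) with Slc5a3, the only overlap on the same strand, and Mrpl44 shared 11 with Wdfy1.

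Across the genotypes the set as a whole stayed near 0, and 1 gene stood apart in all 3 tables. Mrpl55 encodes a large-subunit protein related to bacterial L31, from mm9 chr11:59015988-59019636 (plus strand) and a CDS of 405 nt. In GS LRRK2 TG its normalized footprints were 591 and 482 against a control mean of 410, and its RNA-Seq values were 528 and 578 against 397. All 4 transgenic libraries were thus above the control mean, behind which the spread of the control libraries is not known. In GS/DA LRRK2 TG its footprints were 402 and 377 against 648 and 460 in the controls, and its RNA-Seq values were 286 and 306 against 596 and 369. In LRRK2 KO its footprints were 79.4 and 62.9 against 126 and 169 in WT, and its RNA-Seq values were 85.8 and 131 against 212 and 195. In both of these tables and both assays each genotype library was below each control library, with no overlap. In both assays the control libraries of GS/DA LRRK2 TG lay further apart than the GS LRRK2 TG mean and its control did.

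The log2 changes of Mrpl55 in footprinting were 0.39 in GS LRRK2 TG, -0.51 in GS/DA LRRK2 TG and -1.05 in LRRK2 KO. In RNA-Seq they were 0.48, -0.71 and -0.91. Without the deeper control library the changes of GS/DA LRRK2 TG were -0.24 and -0.32, and without the deeper GS LRRK2 TG library its footprinting change was 0.23, a calculation chosen after seeing the data. The sign stayed the same without any 1 library. In each table footprints and RNA-Seq reads moved the same way, and TE differed by -0.09, 0.20 and -0.15, of which only the value of GS/DA LRRK2 TG passed the TE rule. In LRRK2 KO its footprinting change was below all but 0.0628% of transcripts, and in GS LRRK2 TG it was above 99.5% of them. The counts behind it were low, with 162 and 127 footprints in the WT libraries and 116 and 45 in the LRRK2 KO libraries. Its LRRK2 KO footprint mean of 71.2 was the lowest of the 63 members, and in that table it drops out where all means must reach 2 times the read minimum. By limma, a linear model over all transcripts, LRRK2 KO had a log2 change of -0.95 ± 0.26 SE in footprinting (limma adjusted p = 1) and -0.87 ± 0.30 SE in RNA-Seq (limma adjusted p = 1). For GS/DA LRRK2 TG footprinting gave -0.48 ± 0.18 SE (limma adjusted p = 1) and RNA-Seq gave -0.65 ± 0.51 SE (limma adjusted p = 1). With the libraries of the 2 groups matched by the differences they share, as a block, limma gave adjusted p = 0.000679 in LRRK2 KO footprinting and 0.0485 in RNA-Seq, and 0.132 and 1 in GS/DA LRRK2 TG. The matching was read from the same values, so the blocked p is not independent of them.

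**Figure D2:**
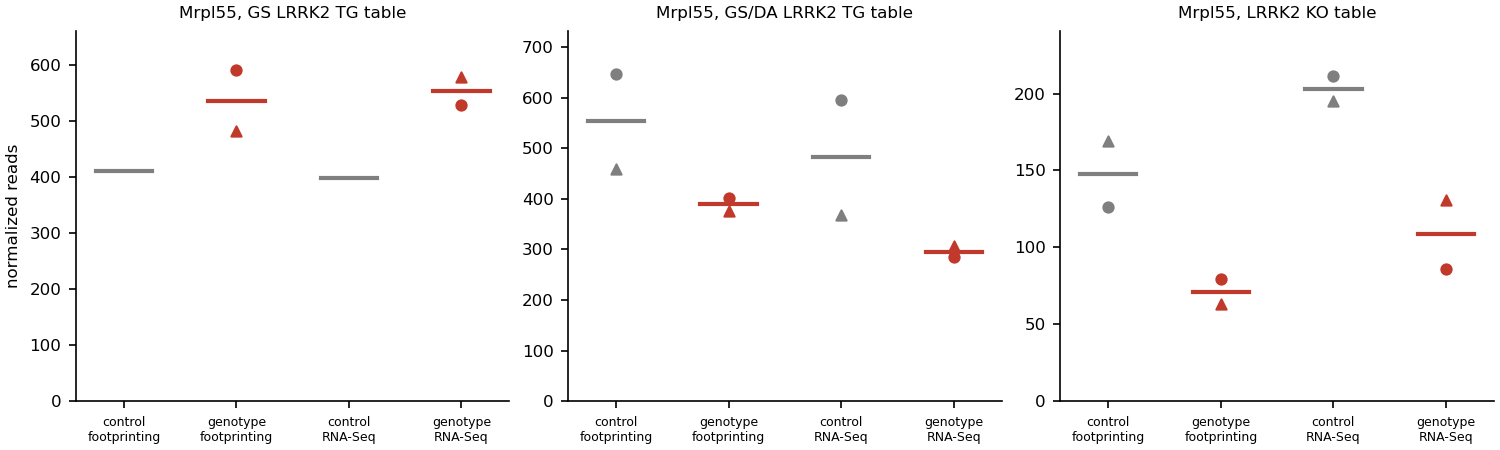
Normalized reads of Mrpl55 in the 3 tables, by group and assay; horizontal lines are group means, circles the deeper and triangles the shallower recovered library, grey the control and red the genotype. The non-TG control of the GS LRRK2 TG table has a mean only. Mrpl55 is above the control in GS LRRK2 TG and below it in GS/DA LRRK2 TG and LRRK2 KO.

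In GS LRRK2 TG mice the comparison with non-TG control asks what the kinase-active mutant does to the mRNAs. The median log2 change of the 63 members was 0.00 in footprinting, 0.02 in RNA-Seq and -0.06 in TE, beside 0.00, -0.02 and 0.02 over all transcripts. The sign was not held by single libraries, since leaving out the deeper or the shallower GS LRRK2 TG library gave a footprinting median of 0.07 or -0.10. The TE median was between -0.11 and 0.05 over the combinations of single libraries. The large subunit had 0.00 in footprinting and the small subunit -0.02. In TE 66.7% of the members were below 0, against 45.2% of all transcripts, and so were 71.8% of Nduf genes (median -0.06) and 79.7% of cytosolic ribosomal proteins (median -0.14). By the rule of the study, a z score of the TE difference over all transcripts of at least 1.5 in size, 1 member was TE up, where 8.01% of all transcripts were, and 1 was TE down, where 3.91% were.

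The TE up member was Mrpl47, related to L29 beside the exit tunnel, with the lowest RNA-Seq mean of the set. Its footprints were 419 and 485 against a control mean of 362, and its RNA-Seq values were 286 and 101 against 234. Both footprinting libraries were above the control mean, while its RNA-Seq libraries lay on both sides. Its TE difference was 0.60. The TE down member was Mrpl32, related to L32 and cut by the m-AAA protease on import, with footprints of 415 and 466 against 477 and RNA-Seq values of 709 and 300 against 441. Its footprints lay below the control mean and its RNA-Seq libraries again straddled it, for a TE difference of -0.31.

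In footprinting 3 members were higher by at least 0.25 on the log2 scale, where 3.32% of all transcripts were, and 0 were lower, where 3.21% were. They were Mrpl55, Mrpl47 (0.32) and Mrpl33 (0.26), a small zinc-site relative of L33 whose libraries had 508 and 792 footprints, on either side of a control mean of 544. In RNA-Seq 2 were higher, Mrpl55 and Mrpl41 (0.29), where 4.02% of all transcripts were, and 3 were lower, where 15% were. The lower ones were Mrpl50 (-0.37), Mrpl14 (-0.30) and Mrpl47 (-0.28). For Mrpl14 and Mrpl41 the RNA-Seq libraries of GS LRRK2 TG differed from each other by more than these changes, with 100 and 619 normalized reads for Mrpl14, related to L14 at the subunit interface, and 1784 and 612 for Mrpl41. Their libraries lay on either side of control means of 442 and 981. The lowest footprinting changes among members with all means at 2 times the read minimum or above were those of Mrps24 (-0.21), Mrpl12 (-0.20) and Mrpl37 (-0.20). No test across transcripts was run in this comparison, where the control was available only as a deposited mean. Non-TG control libraries resolved from the GS/DA LRRK2 TG table were not used in its place, since comparisons stayed within a table.

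In GS/DA LRRK2 TG mice, where the kinase is inactive, most members had slightly lower footprint means than in the non-TG control. Their median log2 change was -0.06 in footprinting and -0.06 in RNA-Seq, beside -0.01 and 0.06 over all transcripts, and 51 of 63 were below 0 in footprinting (81.0%, against 52.5% of all). The large subunit had a median of -0.08 in footprinting, with 37 of 42 below 0, and the small subunit -0.02, with 13 of 20 below 0. Other genes of the respiratory system and the ribosome were lower by like or larger amounts. Of 74 cytosolic ribosomal proteins 73 were below 0 in footprinting, with a median of -0.15, and of 39 Nduf genes 32 were, with a median of -0.05. Within the libraries matched between the groups the members' footprinting medians were -0.08 and -0.05, and their RNA-Seq medians were -0.19 and 0.05, of opposite sign. Leaving out the deeper GS/DA LRRK2 TG library moved the RNA-Seq median to -0.25. The footprinting medians were small against the spread between libraries, since leaving out the deeper or the shallower control library gave 0.02 and -0.15, and leaving out the deeper or shallower GS/DA LRRK2 TG library gave -0.12 and 0.01.

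Cortical markers also differed in this table. The 4 of 5 listed cortical projection neuron genes present had summed footprints of 4335 and 2765 in GS/DA LRRK2 TG against 1792 and 1243 in the controls, and all 4 were higher in footprinting and in RNA-Seq. Slc17a7, the vesicular glutamate transporter, was the most abundant. The sum of the 10 striatal markers had a log2 change of -0.31 in footprinting, and 0 of 10 were higher. Ttr, a choroid plexus marker, had 5162 and 1137 footprints against 1193 and 17056. Microglial markers were 3 of 3 higher in both assays (sums 0.16 in footprinting and 0.18 in RNA-Seq). Astrocyte markers were 4 of 4 higher in both (0.03 and 0.05), and blood markers 0 of 2 (-0.32 and -0.22). The oligodendrocyte sum had 0.01 and 0.06. Markers differed in the other tables too. In GS LRRK2 TG the cortical sum had a log2 change of -0.67 in RNA-Seq with 0 of 4 higher. In footprinting it had -0.20 with 1 of 4 higher, and its libraries, at 575 and 2483, lay on either side of the control at 1757. In the same table Ttr had -2.45 in footprinting, with 408 and 1037 against a control mean of 3944, and -1.89 in RNA-Seq. The spread of the control libraries behind that mean is not known, and those of GS/DA LRRK2 TG, at 1193 and 17056, differed widely. In GS LRRK2 TG 5 of 5 oligodendrocyte markers were higher in footprinting (sum 0.17). In LRRK2 KO blood markers had -0.67 in footprinting, with overlapping libraries of 1976 and 1113 against 3918 and 1006 in WT. Cortical markers had -0.26 in RNA-Seq with 0 of 5 higher, and -0.10 in footprinting with 3 of 5 higher. Of the microglial markers 3 of 3 were higher in footprinting (sum 0.29). Ttr had 0.12 in footprinting and -1.03 in RNA-Seq, with overlapping libraries in both. In bulk tissue, fewer cells of a type and less RNA per cell cannot be told apart, and the part of cell composition in the members' values was not tested.

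By the TE rule 4 members were TE up in GS/DA LRRK2 TG, where 3.65% of all transcripts were, and 1 was TE down, where 7.36% were. Mrps35, a small-subunit protein of the mitochondrial lineage, had the highest TE difference (0.26), with footprints of 559 and 545 against 504 and 438 in the controls. Its RNA-Seq values of 490 and 811 lay within the control range of 865 and 463. Mrps35 was thus the 1 member whose footprinting libraries all lay above the control libraries, where 12% of all transcripts did so. The other TE up members were Mrpl41 (0.24), Mrpl22 (0.20), related to L22 that lines the exit tunnel, and Mrpl55. Mrpl22 had footprints of 723 and 624 against 704 and 650, which overlap, and RNA-Seq values of 439 and 326 against 372 and 513, lower in both matched libraries (-0.19 and -0.23). The TE down member was Mrpl1 (-0.40), related to L1 of the stalk by the tRNA exit site, with footprints of 523 and 399 against 567 and 432. Its RNA-Seq values were 104 and 637 against 487 and 122, so that the libraries of each group differed far more than the groups did.

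In footprinting 11 members had both GS/DA LRRK2 TG libraries below both control libraries, where 12.2% of all transcripts did. They were Mrpl12, Mrpl16, Mrpl42, Mrpl44, Mrpl50, Mrpl54, Mrpl55, Mrps6, Mrps9, Mrps21 and Mrps33. In RNA-Seq 4 did so, where 1.58% of all transcripts did, namely Mrpl16, Mrpl24, Mrpl55 and Mrps33, and 0 lay above, where 1.80% did. Mrpl16, related to L16 of the tRNA binding cleft, had footprints of 900 and 903 against 1077 and 987 and RNA-Seq values of 758 and 762 against 1043 and 828. It was lower in both assays without overlap, by -0.19 and -0.30. Mrpl50 had 665 and 571 footprints against 759 and 699, also without overlap, for a change of -0.24.

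Past 0.25 in size, 0 members were higher in footprinting, where 3.67% of all transcripts were, and 1 was lower, Mrpl55, where 3.35% were. In RNA-Seq 1 was higher, Mrpl1 (0.28), where 14.2% of all transcripts were, and 5 were lower, where 2.59% were. Besides Mrpl55 the lower ones were Mrpl40 (-0.33), Mrpl16 (-0.30), Mrpl48 (-0.26) and Mrpl41 (-0.25), all but Mrpl16 and Mrpl55 without a bacterial relative. Mrpl40 had RNA-Seq values of 467 and 636 against 835 and 547, which overlap, and Mrpl41 had 714 and 1432 against 1828 and 731. In matched libraries, where the shallower control goes with the deeper GS/DA LRRK2 TG library, Mrpl40 was lower in both (-0.39 and -0.23), and so was Mrpl41 (-0.35 and -0.04).

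No member passed the test across all transcripts in GS/DA LRRK2 TG. By limma at an adjusted p under 0.05, 0 of 63 members and 0% of 8325 transcripts passed in footprinting, and at an unadjusted p under 0.05 it was 1 member, Mrpl55, and 1.83% of transcripts. Leaving out the deeper control or the shallower GS/DA LRRK2 TG library ended that call. In RNA-Seq 0 members passed on either threshold (0% of transcripts on both), and the same held for the interaction of genotype and assay, which tests TE (0% on both). With the library block 0 members passed at the adjusted threshold in footprinting, where 0.456% of transcripts did, in RNA-Seq (0%) and in the interaction (0%). Leaving out the deeper or the shallower control library let 29 or 13 transcripts pass in footprinting, and leaving out the deeper or the shallower GS/DA LRRK2 TG library let 2 or 12 pass. In each of these fits 1 group is a single library and the spread comes from the other group, so the counts show only how much the test turns on 1 library. Even Lrrk2 reached only an adjusted p = 0.866 in footprinting without the block (log2 change 2.14 ± 0.22 SE) and 0.000981 with it.

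In LRRK2 KO mice, the comparison with WT asks what the loss of the protein does. The members as a set lay near 0, with median log2 changes of 0.00 in footprinting, -0.01 in RNA-Seq and 0.04 in TE. Over all transcripts these were 0.02, 0.01 and 0.02. Without 1 library the RNA-Seq median was between -0.17 and 0.07 and the TE median between -0.09 and 0.17, so neither sign was held. Of 63 members 32 were below 0 in footprinting (50.8%, against 45.6% of all). The cytosolic ribosomal proteins had an RNA-Seq median of 0.26, with 4.05% below 0, and a median TE difference of -0.26. That came from the libraries of 1 match, since their RNA-Seq medians were -0.06 and 0.48 in the matched libraries. The Nduf genes had -0.02 in footprinting, -0.01 in RNA-Seq and -0.05 in TE.

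By the TE rule 2 members were TE up in LRRK2 KO, where 6.23% of all transcripts were, and 0 were TE down, where 6.02% were. Mrps6, related to S6 of the small-subunit platform, had footprints of 157 and 176 against 143 and 132 in WT. Both LRRK2 KO libraries were above both WT libraries. Its RNA-Seq values were 132 and 136 against 137 and 195, below both WT libraries by a narrow margin. Its TE difference was 0.59, and 12% of its CDS overlaps Slc5a3. Mrpl22 had footprints of 156 and 158 against 130 and 137, again without overlap, and RNA-Seq values of 125 and 201 against 145 and 247, which overlap but were lower in both matched libraries (-0.21 and -0.30), for a TE difference of 0.50. Mrpl22 was thus TE up in GS/DA LRRK2 TG and in LRRK2 KO, the only member past the rule in more than 1 table. The rule set unlike TE up cutoffs, 0.19 in GS/DA LRRK2 TG and 0.43 in LRRK2 KO. In GS/DA LRRK2 TG Mrpl22 lay just past the cutoff, with overlapping footprints.

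In footprinting 3 members were higher by at least 0.25, where 8.39% of all transcripts were. Mrpl18 (0.34) had 147 and 152 footprints against 121 and 116, and its RNA-Seq values of 338 and 375 against 296 and 316 were also higher without overlap. Mrpl42 (0.32) had 126 and 127 against 100 and 103, with RNA-Seq values of 257 and 261 against 265 and 249. Mrps6 (0.28) was the last of them. For Mrpl18 and Mrpl42 the footprints of the LRRK2 KO libraries were nearly equal, as were those of WT. Only Mrpl55 was lower by at least 0.25, where 7.01% of all transcripts were. In RNA-Seq 1 member was higher, Mrps16 (0.30), where 12% of all transcripts were, and 8 were lower, where 13.4% were. Besides Mrpl55 these were Mrps28 (-0.38), Mrpl36 (-0.32), Mrps34 (-0.32), Mrps6 (-0.31), Mrps17 (-0.28), Mrpl22 (-0.26) and Mrpl35 (-0.26). Each of those 7 had a footprinting change between -0.02 and 0.28, so none was lower in both assays as Mrpl55 was.

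Among members with all means at 2 times the read minimum or above the changes were small. Mrpl3 had the highest TE difference (0.21), with 424 and 375 footprints against 347 and 352 in WT, and Mrpl16 the lowest (-0.04). Without overlap between the groups, 9 members were higher in footprinting, where 6.22% of all transcripts were, and 2 were lower, Mrpl40 and Mrpl55, where 6.41% were. The higher ones were Mrpl3, Mrpl15, Mrpl18, Mrpl22, Mrpl37, Mrpl41, Mrpl42, Mrps6 and Mrps25. In RNA-Seq 3 were higher, Mrpl12, Mrpl18 and Mrps9, where 7.04% of all transcripts were, and 7 were lower, where 7.03% were. By limma at an adjusted p under 0.05, 0 members and 0% of 9521 transcripts passed in footprinting, in RNA-Seq (0%) and in the interaction (0%). At an unadjusted p under 0.05 it was Mrpl55 alone in footprinting (0.168% of transcripts) and in RNA-Seq (0.0735%), and no member in the interaction (0.0420%). Mrpl55 was no longer among them in 3 of 4 fits without 1 library in footprinting and in 3 of 4 in RNA-Seq, fits in which 1 group is a single library. Its change stayed between -1.25 and -0.83 in footprinting and between -1.24 and -0.63 in RNA-Seq. With the library block Mrpl55 was the 1 member that passed in footprinting, where 0.158% of transcripts did, and in RNA-Seq, where 0.137% did, with 0 members in the interaction (0%).

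**Figure D3:**
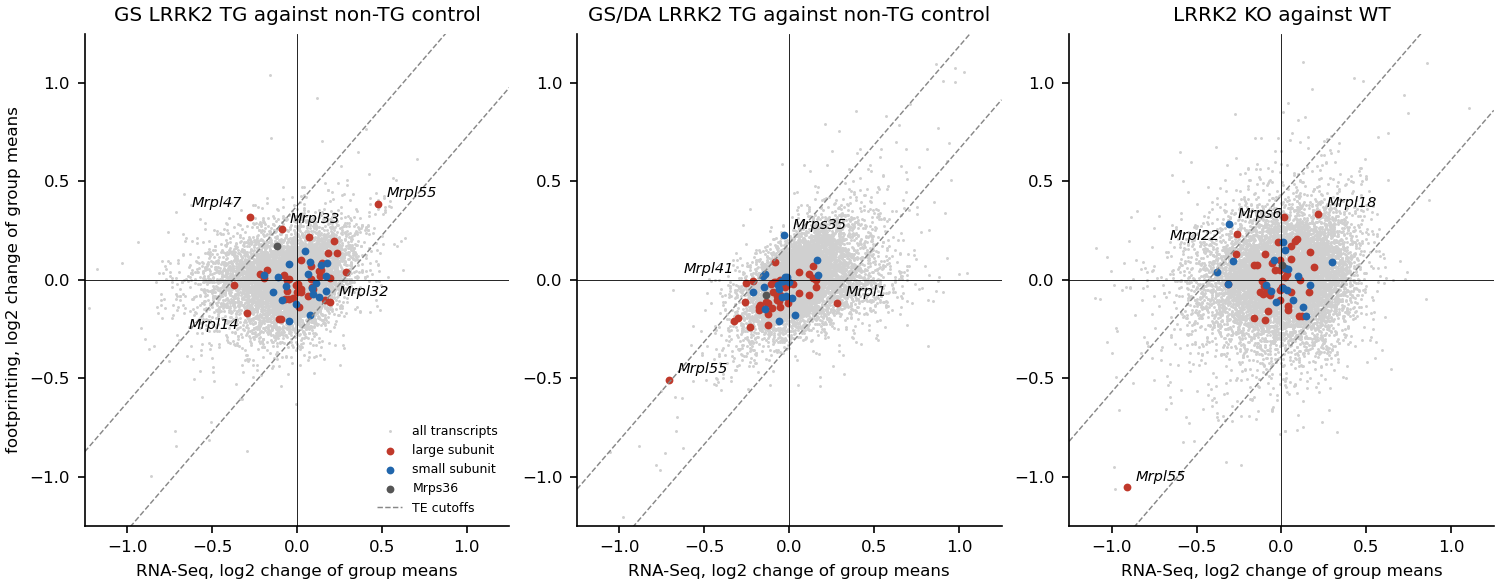
Log2 change of group means in footprinting against that in RNA-Seq for each genotype and its control; grey points are all transcripts, red points large-subunit members, blue points small-subunit members and the dark point Mrps36, and dashed lines mark the TE cutoffs at z scores of 1.5 and -1.5. Members gather around 0 in all panels, and Mrpl55 lies at upper right in GS LRRK2 TG and at lower left in the others; a few transcripts fall outside the axes.

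The rest of the mitochondrial translation apparatus was read beside the members. Of the other ribosome subunits with names of their own, 6 were in each table, and 0 of 6 passed the TE rule in any. Their median footprinting changes were 0.01, 0.01 and -0.01 in the order GS LRRK2 TG, then GS/DA LRRK2 TG, then LRRK2 KO. Of the translation factors, 9 were in the transgenic tables and 11 in the LRRK2 KO table. In GS LRRK2 TG 9 of 9 were below 0 in footprinting (48.8% of all transcripts were) with a median of -0.10, or -0.21 and -0.06 in single libraries, and in the other tables the medians were 0.00 and 0.13. Guf1, the mitochondrial relative of the elongation factor LepA, was TE down in GS/DA LRRK2 TG (-0.36) and in LRRK2 KO (-0.57). In GS/DA LRRK2 TG its footprinting change was 0.00. Its RNA-Seq values there were 41.4 and 494 against 339 and 77.6, of opposite sign in the matched libraries (0.54 and -0.90). In LRRK2 KO its footprints were 47.2 and 67.1 against 56.1 and 108, which overlap. Taco1, an activator of Cox1 translation, was TE up in GS/DA LRRK2 TG (0.25).

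Assembly factors of the mitochondrial ribosome, 16 in the transgenic tables and 19 in the LRRK2 KO table, were read by the same rule, which 8.01% of all transcripts passed as TE up and 3.91% as TE down in GS LRRK2 TG, 3.65% and 7.36% in GS/DA LRRK2 TG, and 6.23% and 6.02% in LRRK2 KO. In GS LRRK2 TG 2 were TE up, Fastkd2 (0.54), which binds the large rRNA, and Mterfd1 (0.53), and 2 were TE down, Rnmtl1 (-0.47), an rRNA methyltransferase, and Spg7 (-0.34), a subunit of the m-AAA protease. RNA-Seq libraries lay on either side of the control mean for Fastkd2 (194 and 64.4 against 189) and Mterfd1 (201 and 82.6 against 186). Both footprinting libraries of Rnmtl1 were below it (235 and 186 against 279). Both RNA-Seq libraries of Spg7 were above it (986 and 830 against 750). In GS/DA LRRK2 TG 2 were TE up, Spg7 (0.30) and Nsun4 (0.22), and Mterfd1 (-0.40) was TE down. The RNA-Seq values of Mterfd1 there were 134 and 365 against 278 and 146, which overlap. In LRRK2 KO 0 were TE up and 2 were TE down, Gtpbp5 (-0.51) and Fastkd2 (-0.42). Among the aminoacyl-tRNA synthetases, 12 in the transgenic tables, Rars2 (0.39) was TE up and Fars2 (-0.38), Aars2 (-0.29) and Tars2 (-0.28) were TE down in GS LRRK2 TG. Each had RNA-Seq libraries on either side of the control mean, and Fars2, Aars2 and Tars2 had both footprinting libraries below it. In GS/DA LRRK2 TG Nars2 (0.23) was TE up. Of 15 in the LRRK2 KO table, Qrsl1 (0.43) was TE up and Pars2 (-0.45) TE down. Among the proteins that bind mitochondrial mRNA, Fastkd5 (0.64) was TE up in LRRK2 KO and none passed in the transgenic tables. By limma at an adjusted p under 0.05, 0 transcripts passed the interaction in GS/DA LRRK2 TG or LRRK2 KO. These genes were included where they were resolved, and in GS LRRK2 TG no test was run.

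Promoters of the members were searched for motifs known from promoters of mitochondrial and housekeeping genes. The RefSeq promoter table (GRCm38.p6), with 250 bases before and 50 after each start, held 54 of 63 members with 60 promoters, and no entry was found for Mrpl4, Mrpl13, Mrpl15, Mrpl19, Mrpl38, Mrpl54, Mrps28, Mrps34 and Mrps35. On either strand, CCGGAAG (ETS type) stood in 30% of the members' promoters and in 8.86% of all promoters. AAGATGG (YY1 type) stood in 16.7% against 6.34%, and GCATGCG (NRF1 type) in 8.33% against 3.58%. CCAAT stood in 46.7% against 37.4% and GGGCGG in 51.7% against 35.7%. The 100 bases before the start are printed for Mrpl22, which passed the TE rule in both GS/DA LRRK2 TG and LRRK2 KO, and for Mrpl55, which moved the furthest, with capitals for matches to the ETS, NRF1 and YY1 types. Mrpl22 (chr11:58171564-58171663, plus strand) held an ETS-type match and, closer to the start, an NRF1-type match that reads on both strands. Mrpl55 (chr11:59202386-59202485, plus strand) held neither in this window, and of the 5 motifs its whole promoter held only GGGCGG. A match is a description of letters and not a binding site.
Mrpl22: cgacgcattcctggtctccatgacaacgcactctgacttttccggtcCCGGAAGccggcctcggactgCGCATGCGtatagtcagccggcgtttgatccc
Mrpl55: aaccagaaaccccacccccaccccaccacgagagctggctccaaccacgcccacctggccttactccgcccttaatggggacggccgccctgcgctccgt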

How the data were processed

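Striatal footprinting and RNA-Seq libraries were compared in 3 deposited tables. The submitters' processing notes name CASAVA 1.8, TopHat2 2.0.11, Bowtie2 2.2.2 and DESeq 1.20. The authors aligned reads to mm9, counted them in coding sequence, discarded transcripts under 128 reads and deposited group means, a signal of read counts divided by DESeq size factors. The deposited unit of the 5′UTR folding energy is other, in kcal/mol. The authors' comparison columns (TE, dTE and its z score) were not used, and TE was computed from the means as log2 of footprints over RNA-Seq. Each table was normalized on its own, so comparisons stayed within a table.

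Reads per library were recovered where 2 size-factor steps explained the digits of a mean of at most 10000, a procedure tested on simulated data. It resolved between 97.9% and 99.7% of transcripts in 10 columns. Libraries of the 2 groups were matched by the sign of Spearman's rho between their differences, which was 0.738 and -0.977 for footprinting and RNA-Seq in GS/DA LRRK2 TG and 0.756 and 0.682 in LRRK2 KO. limma 3.58.1 (R 4.3.3) was fitted to log2 of normalized reads plus 10 over all transcripts resolved in 8 libraries, with Benjamini-Hochberg adjustment; a log-scale test was used since the unit is a mean and not a count. Python 3.11.15 with pandas 2.3.3 did the rest. CDS lengths came from GENCODE for mm9, matched for 98.4%, 98.4% and 98.3% of transcripts and 63 of 63 members.

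Named genes were Lrrk2, members past the TE rule, the 3 highest and 3 lowest members by TE, footprinting and RNA-Seq change among those with all means at 2 times the read minimum or above, the 5 highest and 5 lowest in the controls, members near the lowest means, and listed genes past the rule or at the ends of their list. Other members were chosen after their values were seen: members past 0.25 or without overlap. The members and lists were chosen with earlier results of these data known. Alternatives covered filters, pseudocounts, centring, GC content in 20 bins, single libraries and the library block.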

Additional observations from a re-analysis of the deposited data

Results flagged for a closer look

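Mrpl55 drew attention because every library of 1 genotype moved one way and every library of another moved the opposite way. In RNA-Seq it had log2 changes of 0.41 and 0.54 in the GS LRRK2 TG libraries against the control mean, -0.96 and -0.37 in the matched libraries of GS/DA LRRK2 TG, and -1.30 and -0.57 in those of LRRK2 KO. These differences between genotypes were not tested, and the spread of the control libraries in the GS LRRK2 TG table is not known. The tables of the transgenic genotypes share control mice. No group had more than 2 recovered libraries, too few to look for a library far from the others.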

How the results depend on the processing

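No paired analysis was possible because the deposited columns carry no replicate number, so the libraries recovered from them could not be tied to the numbers of the labels from the deposited files. Libraries matched by their shared difference were used as a block in its place.

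In GS LRRK2 TG the members' median footprinting change (0.00) was -0.10 to 0.07 and the TE median (-0.06) was -0.13 to -0.01 without 1 library. The median RNA-Seq change (0.02) was 0.04 with means at 2 times the read minimum, 0.07 at 4 times, 0.05 with centring, 0.05 with GC correction, and 0.07 and 0.06 in single libraries, so leaving out 1 library gave 0.06 to 0.07. The count TE up (1) was 4 at a z of 1, 3 with median and scaled MAD and 2 with GC correction. The count TE down (1) was 8 at a z of 1, 0 at a z of 2, 3 at 2 times the read minimum and 5 with GC correction. In RNA-Seq the count higher (2) was 7 with GC correction, and the count lower (3) was 1 at 2 times the read minimum and 1 with GC correction.

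In GS/DA LRRK2 TG leaving out 1 library moved the median footprinting change (-0.06) to between -0.15 and 0.02, and that in RNA-Seq (-0.06) to between -0.25 and -0.01, with -0.19 and 0.05 in the matched libraries. The TE median (-0.01) was 0.18 with batch 2 of footprinting and batch 1 of RNA-Seq, -0.15 with batch 1 of footprinting and batch 2 of RNA-Seq, and 0.13 and -0.07 with batch 1 or batch 2 of both. The count TE up (4) was 12 at a z of 1, 0 at a z of 2 and 7 with median and scaled MAD. The count TE down (1) was 0 at a z of 2 and 0 with GC correction. In RNA-Seq the count higher (1) was 0 with centring and 0 with GC correction, and the count lower (5) was 8 with each. In its controls the median footprints per kb (1235) were 1094 in library 2 alone, and the median TE (-0.08) was 0.09 and 0.07 for library 1 of footprinting over libraries 1 and 2 of RNA-Seq. The limma count of transcripts in footprinting (0) was 38 with the library block and 2 to 29 without 1 library.

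In LRRK2 KO the median footprinting change (0.00) was 0.05 at 2 times the read minimum, 0.08 in batch 1 and up to 0.05 without 1 library. In RNA-Seq (-0.01) it was -0.03 in batch 2 and -0.17 to 0.07 without 1 library. In TE (0.04) it was 0.13 with batch 2 of both assays and -0.09 to 0.17 without 1 library. The count TE up (2) was 8 at a z of 1, 1 at a z of 2, 0 at 2 times the read minimum and 5 with GC correction, and the count TE down (0) was 4 at a z of 1. At 2 times the read minimum the fold counts were 0 in footprinting higher (3) and lower (1) and 0 in RNA-Seq higher (1) and lower (8), with 9 members left. At 4 times the read minimum no member was left and no value could be given. In WT the median footprints per kb (293) were 480 at 2 times the read minimum and 270 in library 2 alone, and the median TE (-0.54) was -0.35 for library 2 of footprinting over library 1 of RNA-Seq. With the library block the limma counts (0) were 15 transcripts and 1 member in footprinting and 13 transcripts and 1 member in RNA-Seq.

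An alternative chosen after seeing the data left out 1 library for Mrpl55. Its footprinting change was 0.23 to 0.53 in GS LRRK2 TG (0.39), -0.73 to -0.24 in GS/DA LRRK2 TG (-0.51) and -1.25 to -0.83 in LRRK2 KO (-1.05). In RNA-Seq it was 0.41 to 0.54 (0.48), -1.01 to -0.32 (-0.71) and -1.24 to -0.63 (-0.91).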

Other observations

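Mrps36, which carries a mitochondrial ribosome name but is held to belong to an enzyme complex of the citric acid cycle, was among the higher members by TE in GS LRRK2 TG, with 627 and 797 footprints against a control mean of 631 and RNA-Seq values of 510 and 640 against 624. Its TE difference was 0.29 and below the TE up cutoff of 0.38.

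The labels list 3 footprinting libraries for WT and for LRRK2 KO in striatum, and the recovered columns held 2. The labels also list 1 ventral midbrain footprinting library of each genotype, for which the tables hold no column. The study's results describe additional profiling of striatum and ventral midbrain in LRRK2 KO, and its read counts list the third libraries apart. The tables themselves name no library.

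The RNA-Seq libraries of the transgenic tables differed from each other far more than the footprinting libraries did. Lrrk2 is an example, with RNA-Seq values of 5233 and 560 in the controls and 404 and 5038 in GS/DA LRRK2 TG, beside footprints of 1445 and 1224 and of 7267 and 4766.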
